A study of Homo sapiens with 4 samples.

Results

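The 9 genes described here encode enzymes of the citric acid cycle and their cytosolic counterparts: CS, IDH1, IDH2, IDH3A, OGDH, SUCLG1, FH, MDH1 and MDH2. They were taken by symbol from the gene tables, and all 9 were found among 25411 genes. RNA was sequenced from BEAS-2B, an established and immortalised line of human bronchial epithelial cells grown in Dulbecco's Modified Eagle's Medium. The control group was grown for 72 h without added metal, and the cadmium group was grown for 72 h with 5 µM CdCl2. Each group had 2 libraries, and both groups came from the same line, so the values describe this line alone. Whether the 2 libraries of a group came from separate cultures is not stated in the labels, so p-values may reflect technical spread alone. Controls carry the label of experiment 1 and cadmium libraries that of experiment 2, so effects of experiment and of treatment cannot be told apart.

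The citric acid cycle runs in the mitochondrial matrix and oxidises acetyl groups to carbon dioxide while passing electrons to NADH and FADH2. Citrate synthase (CS) joins acetyl-CoA to oxaloacetate. Isocitrate dehydrogenase, 2-oxoglutarate dehydrogenase, succinyl-CoA ligase, succinate dehydrogenase, fumarase and malate dehydrogenase carry out later steps of the circle. IDH1 and MDH1 encode cytosolic enzymes that carry out related reactions outside the cycle, where IDH1 yields NADPH and MDH1 serves the malate-aspartate shuttle.

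Among the 9 enzymes, IDH1 rose and FH fell with cadmium, and the other 7 did not pass the test. IDH1 RNA was 1.53 times its control level (log2 fold change 0.61, SE 0.15, edgeR adjusted p = 0.0266). FH, which encodes the fumarase that hydrates fumarate to malate, fell by 23.7% (log2 fold change -0.39, SE 0.085, edgeR adjusted p = 0.0202). Over all 13663 genes tested, 8.85% passed as higher and 7.66% as lower, 16.5% in all. The 2 of 9 enzymes that passed are therefore a share near that of all genes. All 9 passed the filter on low counts. The median log2 fold change of the 9 was -0.14, beside 0.0019 over all genes tested. In 4 of the 9, 1 above and 3 below, the cadmium libraries lay on one side of both controls. This was the case for 62.1% of all genes tested, 31.3% above and 30.8% below.

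Reads assigned to genes ranged from 8609243 to 29937242 per library, and control replicate 2 was the shallowest. Levels across libraries are in CPM, the reads of a gene relative to the TMM-adjusted total of its library, and 3 reads correspond to at most 0.356 CPM. Libraries of 1 group differed by more than sampling noise. In bulk RNA, a lower share of cells that carry a transcript and less of it per cell cannot be told apart. Metallothioneins, which bind cadmium, rose in all 5 genes tested, and their summed level was 315 to 425 CPM in control and 4614 to 5212 CPM with cadmium. Of 7 epithelial markers, KRT7, KRT8 and KRT18 were at 235 CPM or more in the control mean, while KRT5 and KRT19 were at 0.0192 CPM and CDH1 at 0.271 CPM. KRT7 fell (log2 fold change -1.02) and EPCAM rose (1.36). Summed levels of 6 leukocyte markers ran from 7.14 to 11.6 CPM in control and 8.42 to 12.2 CPM with cadmium, and of 5 endothelial markers from 1.19 to 1.31 CPM and 3.48 to 3.79 CPM. ITGAM of the former and TIE1 of the latter rose, from control means of 0.272 and 0.875 CPM. The defining markers CD3E and LYZ, and PECAM1, had no read in any library. The 6 fibroblast markers summed to 3724 to 4543 CPM in control and 3275 to 3451 CPM with cadmium, mostly COL1A1. PDGFRB stood at 162 and 185 CPM in control and at 187 and 205 CPM with cadmium. COL1A2 and LUM were at 1.71 and 0.155 CPM in the control mean, and COL3A1 and DCN had no read. Neither COL1A1 (log2 fold change -0.32) nor PDGFRB (0.18) passed the test. Nuclear-retained RNAs, which can mark RNA quality, moved with the treatment: MALAT1 rose by 0.87 and NEAT1 by 0.59 on the log2 scale. Their part in the differences below was not tested.

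**Figure D1:**
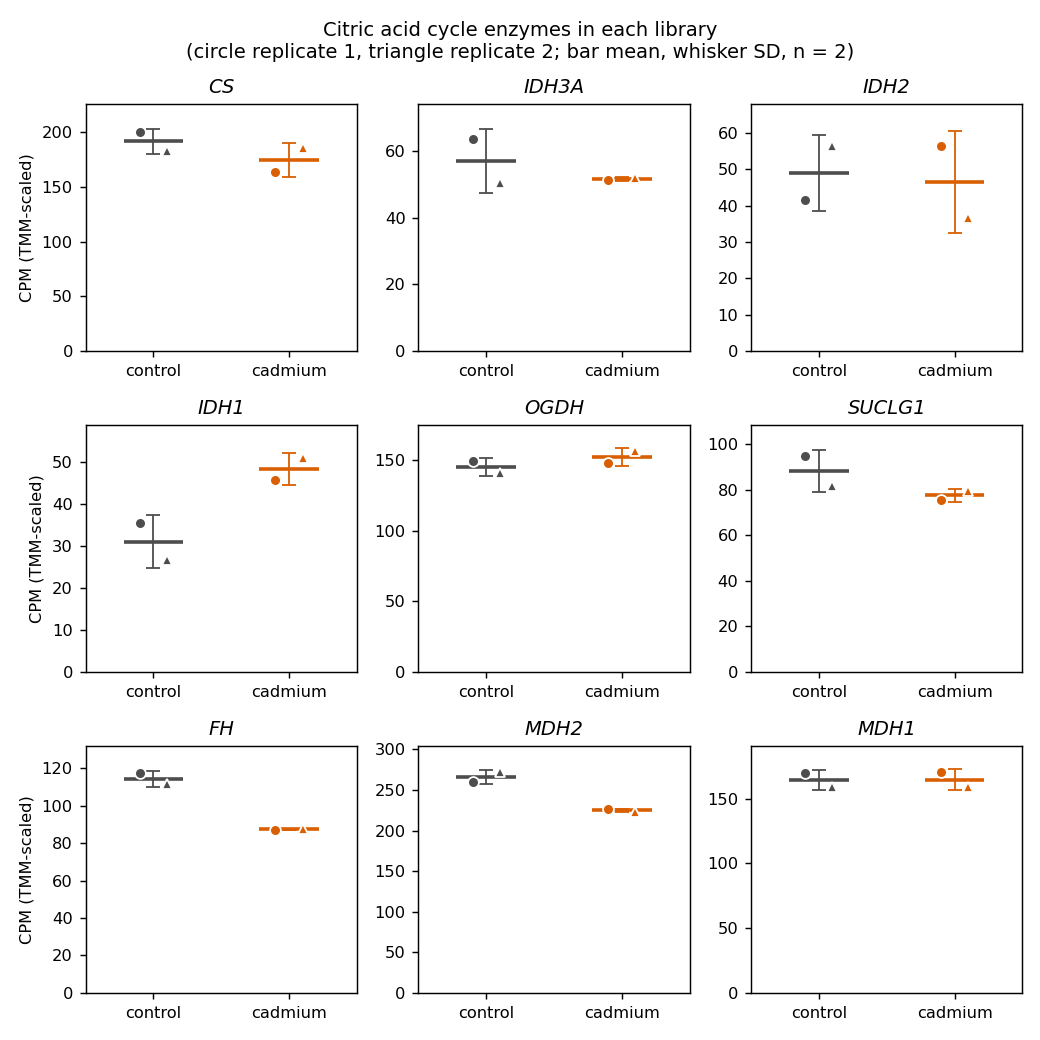
Level of each of the 9 enzymes in CPM (linear axis from 0) in the 2 control and 2 cadmium libraries, with circles for replicate 1, triangles for replicate 2, bars for the mean and whiskers for the SD. The cadmium libraries lie above both controls for IDH1 and below both for SUCLG1, FH and MDH2, and overlap the controls in the other 5 panels.

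Of the isocitrate dehydrogenases among the 9, IDH1 passed the test and IDH2 and IDH3A did not. IDH1 (chromosome 2, 209100951 to 209119867 in hg19, minus strand), the cytosolic NADP-dependent enzyme, stood at 35.4 and 26.6 CPM in the controls and at 45.5 and 50.9 CPM with cadmium. Both cadmium libraries were above both controls, and the means were 31.0 ± 6.20 and 48.2 ± 3.85 CPM (SD, n = 2 each). Behind these values were 921 and 224 reads in control and 1393 and 805 reads with cadmium. In the authors' deposited table the log2 ratio of IDH1 is 0.54, at an adjusted p of 0.00657. The size of the IDH1 difference rested in part on the controls: it was 0.85 without control replicate 1 and 0.43 without control replicate 2. IDH1 did not pass without cadmium replicate 1 (edgeR adjusted p = 0.0516) or without cadmium replicate 2 (edgeR adjusted p = 0.103).

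IDH2 (chromosome 15, 90627211 to 90645786, minus strand) encodes the mitochondrial NADP-dependent enzyme. It stood at 41.6 and 56.4 CPM in the controls and at 56.3 and 36.5 CPM with cadmium. The groups overlapped: 1 library of each was near 56 CPM and the other was lower. The log2 fold change was -0.048 (SE 0.25, edgeR adjusted p = 0.917). Its cadmium libraries differed from each other by 0.63 on the log2 scale, more than 99.4% of 10784 genes with at least 5 CPM, whose median difference was 0.10. Its controls differed by 0.44, at the 90.5 percentile. No difference between the groups was detected for IDH2, and its log2 fold change ran from -0.41 to 0.22 when 1 library was left out.

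IDH3A (chromosome 15, 78441719 to 78462884, plus strand) encodes the catalytic subunit of the NAD-dependent enzyme that serves the cycle itself. It stood at 63.7 and 50.2 CPM in control and at 51.2 and 52.0 CPM with cadmium. Control replicate 1 was higher than the other 3 libraries, which lay close together. The log2 fold change was -0.16 (SE 0.12, edgeR adjusted p = 0.415), 0.036 without control replicate 1, and -0.31 without control replicate 2 (edgeR adjusted p = 0.0470).

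The balance of mitochondrial to cytosolic isoenzyme was compared per transcript length, as a ratio of RPKM within each library. IDH2 over IDH1 was 1.58 and 2.89 in control and 1.68 and 0.947 with cadmium. These ratios overlapped. The difference between the group means was -0.76 on the log2 scale, and it ran from -1.19 to -0.33 when 1 library was left out. With 4 libraries no difference of this ratio could pass an exact two-sided permutation test, whose smallest possible p is 0.333.

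FH was the 1 enzyme of the 9 that passed the test as lower. FH (chromosome 1, 241660857 to 241683085, minus strand) stood at 117 and 112 CPM in control and at 87.2 and 87.6 CPM with cadmium, from 3057 and 939 reads and 2670 and 1384 reads. Both cadmium libraries were below both controls, with means of 114 ± 4.17 and 87.4 ± 0.261 CPM (SD, n = 2 each). The libraries within each group were close: the cadmium pair differed by 0.0061 on the log2 scale. In the authors' deposited table the log2 ratio of FH is -0.37, at an adjusted p of 0.00815. Without cadmium replicate 1 the log2 fold change of FH was -0.38 (edgeR adjusted p = 0.146), and without cadmium replicate 2 it was -0.39 (edgeR adjusted p = 0.113).

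The sequences upstream of the 2 genes that passed in opposite directions are shown to set their promoters side by side. They are the 250 bases before a RefSeq start (GRCh38.p14, a different build from the counts), 5′ to 3′ on the gene's strand. Capitals mark CCAAT or its reverse complement ATTGG. For IDH1 the more upstream of its 2 listed starts is shown. FH lies at chr1:241519756-241520005 and IDH1 at chr2:208255072-208255321, both on the minus strand.
FH: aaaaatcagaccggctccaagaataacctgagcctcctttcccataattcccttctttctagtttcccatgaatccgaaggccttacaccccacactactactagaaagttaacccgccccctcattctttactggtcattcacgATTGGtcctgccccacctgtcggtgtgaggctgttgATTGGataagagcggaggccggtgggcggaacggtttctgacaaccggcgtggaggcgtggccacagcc
IDH1: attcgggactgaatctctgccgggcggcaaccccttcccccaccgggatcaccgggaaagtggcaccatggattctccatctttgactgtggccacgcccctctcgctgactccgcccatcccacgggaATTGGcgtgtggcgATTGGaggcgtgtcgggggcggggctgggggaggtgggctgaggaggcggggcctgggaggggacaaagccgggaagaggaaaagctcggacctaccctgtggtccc

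Both printed windows hold 2 copies of the CCAAT letters and at least 2 of the GC box GGGCGG, counted on both strands. GC content was 53.6% for FH and 66.4% for the printed IDH1 window, beside a median of 58.0% over 35116 windows. The window of the other IDH1 start holds 0 copies of CCAAT and 1 of GGGCGG, with 56.8% GC. The table held 10 windows for 8 of the 9 genes, all but OGDH. CCAAT was in 4 of these 10 windows and in 32.0% of all windows, and GGGCGG was in 5 of 10 and in 42.6% of all. The letters TGACNNNGC, found in antioxidant response elements, were in 1 of the 10 windows, that of IDH1 printed above, and in 10.9% of all. The letters TGCNCNC of metal response elements were in 4 of 10 windows, in neither of those printed, and in 49.1% of all. Letters of the NRF1 site were matched in IDH3A alone, and 5.07% of all windows hold them. The ETS letters CCGGAAG were matched in MDH2 alone, and 8.52% of all windows hold them. Matches of different motifs may share letters, and they describe the windows only.

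Neither CS nor OGDH passed the test. CS (chromosome 12, 56665483 to 56694175, minus strand), which commits acetyl-CoA to the cycle, stood at 199.7 and 183 CPM in control and at 163 and 186 CPM with cadmium. Its groups overlapped (log2 fold change -0.14, SE 0.095, edgeR adjusted p = 0.347), and the log2 fold change ran from -0.23 to -0.041 when 1 library was left out. OGDH (chromosome 7, 44646121 to 44748669, plus strand), the substrate-binding subunit of 2-oxoglutarate dehydrogenase, stood at 149.7 and 141 CPM in control and at 148 and 157 CPM with cadmium. These groups overlapped too (log2 fold change 0.065, SE 0.084, edgeR adjusted p = 0.631), with 0.015 to 0.11 when 1 library was left out.

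SUCLG1 (chromosome 2, 84650647 to 84686586, minus strand) encodes the alpha subunit shared by both succinyl-CoA ligases. It stood at 94.9 and 81.8 CPM in control and at 75.6 and 79.5 CPM with cadmium. Both cadmium libraries were below both controls, yet the gap to control replicate 2 was small. The log2 fold change was -0.20 (SE 0.10, edgeR adjusted p = 0.218), with -0.080 without control replicate 1 and -0.30 without control replicate 2 (edgeR adjusted p = 0.0432).

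Of the malate dehydrogenases, the mitochondrial MDH2 had the lower values with cadmium and the cytosolic MDH1 had like values in both groups. MDH2 (chromosome 7, 75677337 to 75696827, plus strand), which regenerates oxaloacetate, stood at 260.4 and 272 CPM in control and at 226 and 224 CPM with cadmium. Both cadmium libraries were below both controls, but MDH2 just missed the threshold (log2 fold change -0.24, SE 0.077, edgeR adjusted p = 0.0624). It passed with no filter on low counts (edgeR adjusted p = 0.0496). MDH2 has a log2 ratio of -0.24 in the authors' deposited table, at an adjusted p of 0.0751.

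MDH1 (chromosome 2, 63816285 to 63834330, plus strand) stood at 170.0 and 159 CPM in control and at 170.4 and 159 CPM with cadmium. Its groups overlapped in full (log2 fold change 0.0013, SE 0.085, edgeR adjusted p = 0.994). Per transcript length, MDH2 over MDH1 was 1.08 and 1.20 in control and 0.920 and 0.968 with cadmium. Both cadmium ratios were below both control ratios, a difference of -0.28 on the log2 scale (exact two-sided permutation test, p = 0.333, the smallest possible with these 4 libraries, so that it could not pass). With read counts in place of RPKM the difference was -0.25.

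RPKM, the deposited measure that divides reads by transcript length and library total, was used to compare the enzymes with each other. MDH2 and MDH1 had the highest levels of the 9, with control means of 108 ± 2.04 and 94.4 ± 5.20 RPKM and cadmium means of 91.6 ± 1.96 and 97.1 ± 5.57 RPKM (SD, n = 2 each). Together they made up 44.2% to 45.7% of the summed RPKM of the 9 in each library. Their order changed: MDH2 was above MDH1 in both controls and below it in both cadmium libraries. CS, SUCLG1 and FH followed at control means of 56.0 ± 3.45, 52.8 ± 5.54 and 53.4 ± 1.96 RPKM. The ranges of neighbours among these 3 overlapped over the 4 libraries. Within libraries, CS was above SUCLG1 in all 4, and SUCLG1 was above FH in 3. FH then stood at 41.6 ± 0.205 RPKM with cadmium.

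OGDH came next at 29.5 ± 1.30 RPKM in control and 31.5 ± 0.979 RPKM with cadmium. It was below FH and above IDH2 in all 4 libraries. IDH2 (24.3 ± 5.43 and 23.3 ± 7.63 RPKM), IDH3A (18.6 ± 3.11 and 17.2 ± 0.0455 RPKM) and IDH1 (11.3 ± 2.23 and 18.0 ± 1.31 RPKM) were lowest, with overlapping ranges between neighbours. IDH1 was below IDH3A in both controls, and the cadmium means of these genes lay close together. Against all genes tested, mean RPKM ran from the 63.8 percentile for IDH1 to the 94.4 percentile for MDH2. The length implied by RPKM, reads and the summed reads of a library ran from 3342 to 3421 bases for CS, which has 1 RefSeq transcript. FH, also with 1, moved in the same proportion (2096 to 2146 bases), so that part reflects the library total and not the length. For MDH2, which has 4, the spread was wider, from 2402 to 2521 bases. RPKM is thus not a fixed multiple of reads for every gene, even after the library total.

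**Figure D2:**
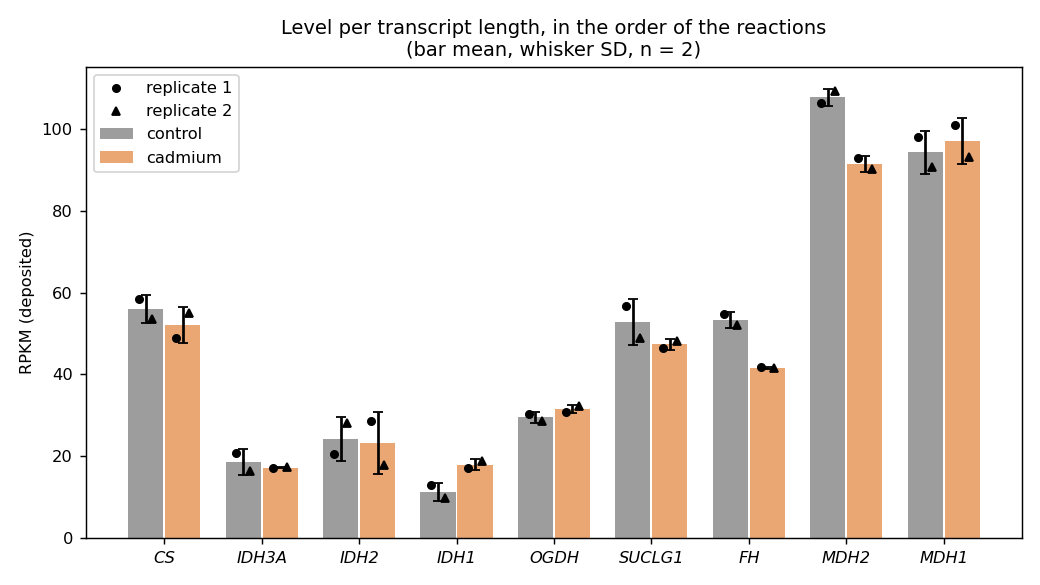
Deposited RPKM of the 9 enzymes (linear axis from 0), in the order of the reactions, with grey bars for control and orange bars for cadmium means, whiskers for the SD, and points for the 2 libraries of each group. MDH2 and MDH1 are highest at 91.6 to 108 RPKM, and IDH1 is lowest in control at 11.3 RPKM.

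The remaining subunits and enzymes of the cycle were read from a separate list of 11 genes. Of these, IDH3B fell, 0 rose and 10 did not pass, a share of 1 in 11 as lower beside 7.66% of all genes tested. IDH3B encodes a second subunit of the NAD-dependent isocitrate dehydrogenase. It stood at 208 and 203 CPM in control and at 161 and 170.4 CPM with cadmium, below both controls. Its log2 fold change was -0.31 (SE 0.080, edgeR adjusted p = 0.0345). IDH3B missed the threshold with library size alone (edgeR adjusted p = 0.0644), with level-dependent scaling (0.103), with a replicate block (0.0575), on log2 RPKM (0.0639 and 0.0656), and without control replicate 1 (0.0582), cadmium replicate 1 (0.280) or cadmium replicate 2 (0.125).

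All 11 of these genes had a log2 fold change below 0, with a median of -0.14, while 49.8% of all genes tested did. When libraries were scaled by their totals alone, which raised the median of all genes by 0.058, 7 of the 11 and 42.5% of all genes were below 0. After the stricter filter 8 of the 11 and 48.4% of all genes were, and after level-dependent scaling 9 and 50.7%. The median of the 11 was -0.082 with totals alone, beside 0.060 over all genes. It was -0.10 after the stricter filter, beside 0.010, and -0.045 with level-dependent scaling, beside -0.0053. Leaving out control replicate 1 or cadmium replicate 2 left 8 of the 11 below 0. The third subunit gene of the NAD-dependent enzyme, IDH3G, had a log2 fold change of -0.22 (edgeR adjusted p = 0.105). The succinate dehydrogenase genes SDHA, SDHB, SDHC and SDHD had values of -0.14, -0.18, -0.052 and -0.23. DLST and DLD, partners of OGDH, had -0.030 and -0.11, and the ligase beta subunits SUCLG2 and SUCLA2 had -0.031 and -0.0038. Partners of 1 complex differed in level: control means per length were 116 ± 1.89 RPKM for IDH3B, 56.4 ± 0.639 RPKM for IDH3G and 18.6 ± 3.11 RPKM for IDH3A (SD, n = 2 each).

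**Figure D3:**
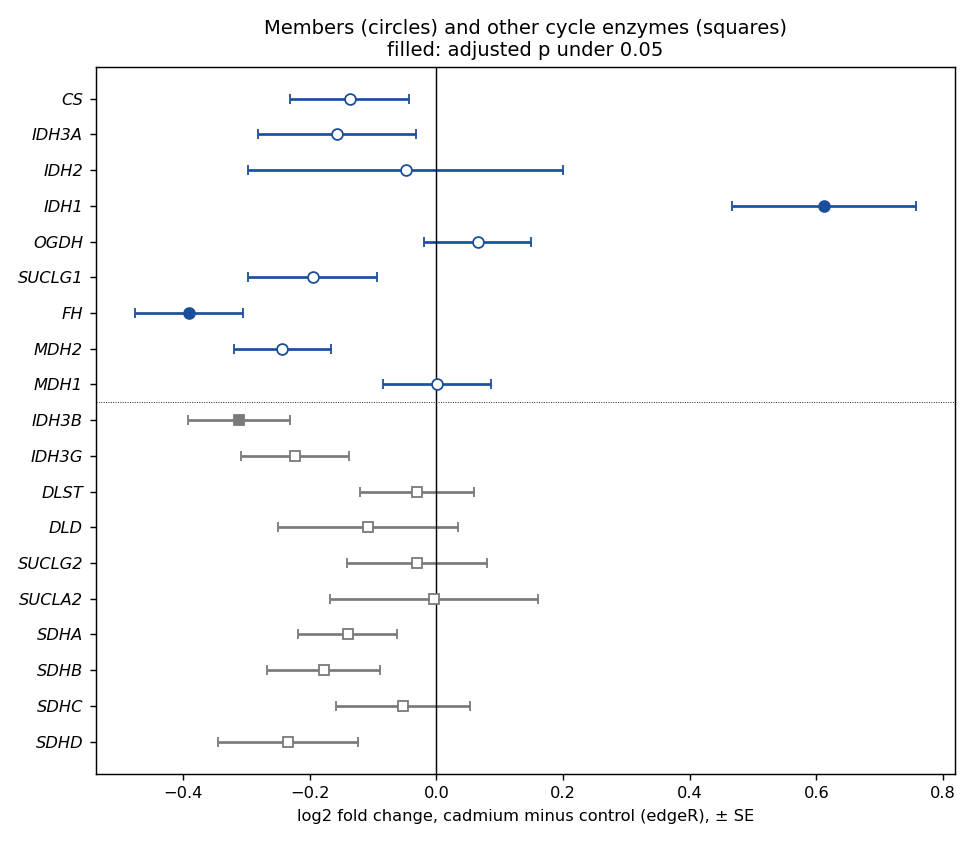
Log2 fold change with its SE (edgeR, 2 cadmium against 2 control libraries) of the 9 enzymes (circles) and 10 of the 11 other cycle genes (squares), filled where the adjusted p was under 0.05. IDH1 at 0.61 stands to the right, FH at -0.39 and IDH3B at -0.31 are the filled points to the left, and most others lie between -0.24 and 0.

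The reactions that feed the cycle with pyruvate were next. Of 13 genes of pyruvate entry 12 were tested: PDK3 and PDP1 rose, 0 fell and 10 did not pass, beside 8.85% of all genes tested as higher and 7.66% as lower. The median log2 fold change of the list was -0.013, and it ran from -0.094 to 0.0065 when 1 library was left out. PDK3, a kinase that switches pyruvate dehydrogenase off, stood at 12.4 and 13.7 CPM in control and at 23.1 and 20.5 CPM with cadmium. Its log2 fold change was 0.75 (SE 0.14, edgeR adjusted p = 0.0135). PDP1, a phosphatase that switches the same enzyme on, stood at 49.0 and 35.0 CPM in control and at 64.8 and 63.4 CPM with cadmium. Its log2 fold change was 0.59 (SE 0.15, edgeR adjusted p = 0.0335), or 0.38 without control replicate 2. In CPM both cadmium libraries lay above both controls for each, as they did for 31.3% of all genes tested. In RPKM the groups overlapped for PDK3, with 3.04 and 0.938 in control and 2.98 and 3.19 with cadmium. PDK3 missed the threshold without cadmium replicate 1 (edgeR adjusted p = 0.114) and PDP1 without either cadmium replicate (0.124 and 0.0810) and at equal depth (0.0541). Both missed it on log2 RPKM (limma adjusted p from 0.0660 to 0.313). The number of higher genes in this list changed when 1 library was left out, as did that over all genes tested. The subunit genes of the enzyme did not pass: PDHB had a log2 fold change of -0.32 (edgeR adjusted p = 0.0598), DLAT -0.32 (0.0581), PDHA1 -0.13 (0.287) and PDHX 0.085 (0.656).

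Reactions that fill or drain the cycle gave no call. Of 11 such genes 10 were tested, and 0 passed with edgeR, DESeq2 or limma-voom, nor had any an unadjusted p under 0.05 with edgeR. Over all genes tested, 16.5% passed with edgeR and 34.0% had an unadjusted p under 0.05. The median log2 fold change was -0.072. Among them GPT2, the mitochondrial alanine aminotransferase, had a log2 fold change of -0.32 (edgeR adjusted p = 0.237). The number of lower genes in this list also changed when 1 library was left out, as did that over all genes tested.

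On the cytosolic side, 9 genes of citrate export, cytosolic aconitase and the malate-aspartate shuttle were tested. ACO1, the cytosolic aconitase that also acts as an iron regulatory protein, rose, and the other 8 did not pass. This 1 of 9 is near the 8.85% of all genes tested that passed as higher. ACO1 stood at 134 and 146 CPM in control and at 172 and 177 CPM with cadmium, with no overlap (log2 fold change 0.32, SE 0.085, edgeR adjusted p = 0.0386). It missed the threshold without control replicate 1 (edgeR adjusted p = 0.0999), cadmium replicate 1 (0.160) or cadmium replicate 2 (0.212), with a replicate block (0.0574), on log2 RPKM (0.0522 and 0.0536) and at equal depth (0.0508). The list's median of 0.063 turned to -0.028 when control replicate 1 was left out and to -0.046 when cadmium replicate 2 was. Among 8 tested regulators of mitochondrial gene programmes 0 passed with edgeR, beside 16.5% of all genes tested. An unadjusted p under 0.05 was found for 2 of the 8, beside 34.0% of all genes tested. These were NRF1 (log2 fold change -0.33, edgeR adjusted p = 0.0691) and PPRC1 (-0.29, edgeR adjusted p = 0.0720). DESeq2 and limma-voom also passed 0 of these regulators.

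Summed over the 9 enzymes, levels were 1133 and 1082 CPM in control and 1023 and 1031 CPM with cadmium. The cadmium sums were below both control sums, a position that 30.8% of single genes tested also had. The sum is weighted to genes with many reads, such as MDH2 with group means of 266 and 225 CPM. Of the 9, 6 had a log2 fold change below 0 and 3 above 0. The genes closest in pattern to the mean of the 9 over the 4 libraries included ASRGL1 and PHF2, with root mean square differences of 0.0016 and 0.0068 on the log2 scale. That likeness is weak as a description, since 3096 of 10781 genes with at least 5 CPM were within 0.1 of the same mean.

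**Figure D4:**
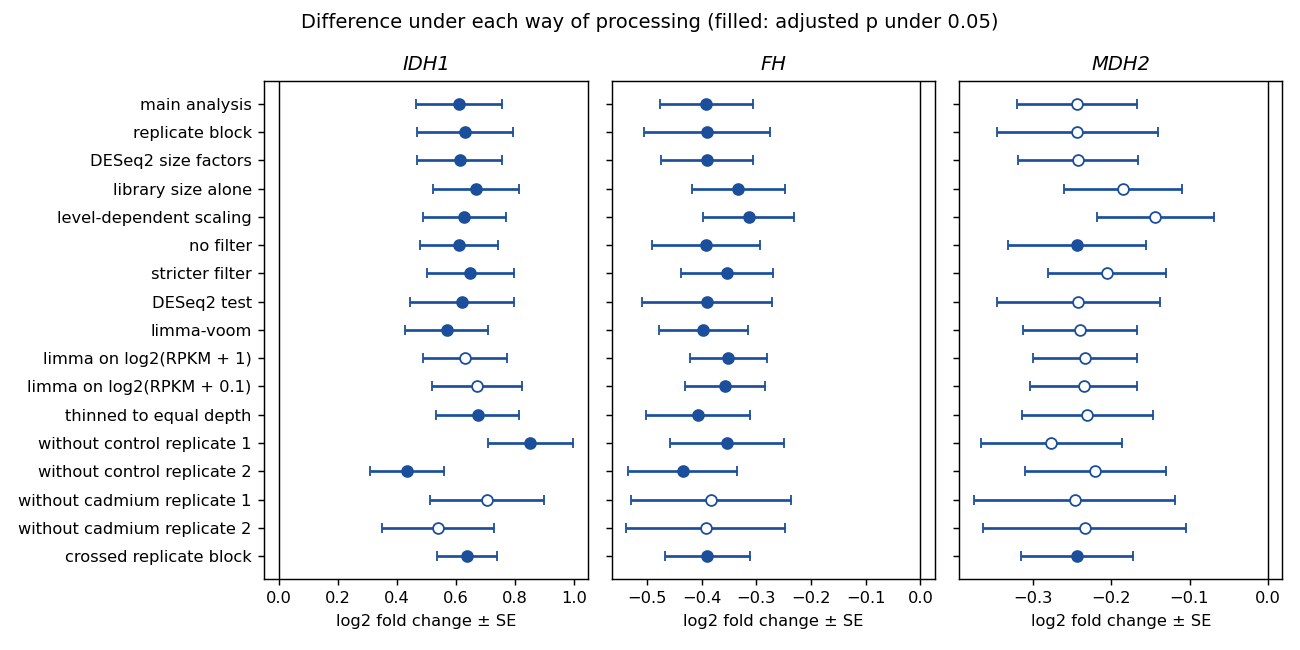
Log2 fold change with its SE for IDH1, FH and MDH2 under each way of processing (rows), filled where the adjusted p was under 0.05. IDH1 stays between 0.43 and 0.85, FH between -0.43 and -0.31 and MDH2 between -0.28 and -0.14, with the widest error bars in the rows without 1 cadmium library.

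The direction of IDH1, FH and MDH2 was the same in all 16 alternatives. IDH1 passed in 12 of them, FH in 14 and MDH2 in 2. IDH1 missed the threshold on log2(RPKM + 1) and log2(RPKM + 0.1) (limma adjusted p = 0.0523 and 0.0525).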

How the data were processed

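Gene-level RNA sequencing values of 4 BEAS-2B libraries were used. Per the file headers and the values, the authors deposited whole-number read counts per RefSeq gene, not normalized, and RPKM for each library. The authors' deposited comparison table holds mean RPKM per group, a log ratio read as log2, and p-values before and after adjustment. The submitters' processing notes name STAR 2.4, DESeq2, DESeq and build hg19 without their roles. How reads were counted, on which annotation and whether by strand is not given in the sources used here. Coordinates are those of the tables, read as 1-based because end minus start plus 1 equalled the RefSeq length in 4708 of 22476 matched genes, against 128 for end minus start.

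Tables were joined by RefSeq identifier. Counts were filtered with filterByExpr, scaled with TMM and fitted with the group alone by edgeR 4.0.16 (robust quasi-likelihood test, R 4.3.3). P-values were adjusted over 13663 genes (Benjamini-Hochberg), and 0.05 was the threshold. The SE came from the F statistic. Alternatives used DESeq2 1.42.0, limma 3.58.1, other scalings and filters, log2(RPKM + 1) and log2(RPKM + 0.1), counts thinned to the shallowest library and leaving out each library. The procedure was tested on simulated counts. The 9 enzymes, the gene lists and the tests were chosen with earlier results of these data known. Named genes were all 9 enzymes and, per list, those that passed or the 2 with the smallest p; not all genes that the rule names are printed, and some are not reported here. Libraries were not thinned or dropped in the main values, and precision is limited by control replicate 2 with 8609243 reads. The floor of 3 reads covers counting error only.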

Additional observations from a re-analysis of the deposited data

How the results depend on the processing

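Of 16 alternatives to the main analysis, beside a threshold of 0.01, 15 were planned and the crossed replicate block was added after seeing the data. With limma on log2(RPKM + 1) and log2(RPKM + 0.1), 0 of the 9 enzymes passed as higher (IDH1 0.63 and 0.67), 678 and 625 genes were higher and 489 and 472 lower over all genes, and 0 of the other cycle genes, 0 of pyruvate entry, 0 of the cytosolic side and 0 leukocyte markers passed. At an adjusted p under 0.01 with edgeR, 233 genes were higher and 149 lower, 0 of the 9 enzymes passed either way, 1 nuclear RNA passed, 0 genes of the other cycle, pyruvate, cytosolic, leukocyte and endothelial lists did, and of the epithelial markers 0 were higher and 1, KRT7, was lower. With no filter, 2 of the 9 were lower (MDH2 at -0.24 joined FH), as were 2 genes of pyruvate entry, 2 of the cytosolic side, 1 regulator and 1 fibroblast marker, and 2 cytosolic genes were higher. Library size alone gave 682 lower genes in all, 0 lower other cycle genes and 0.011 for IDH2; 67.9% of calls were higher, against 53.6% in the main analysis. Level-dependent scaling moved the median of the 9 to -0.043 and left 0 other cycle genes lower and 0 leukocyte markers higher. The stricter filter removed ITGAM and TIE1 from testing, so 0 leukocyte and 0 endothelial markers were called higher. DESeq2 gave 1 lower cytosolic gene, 1 lower fibroblast marker and, with no adjusted p for ITGAM, 0 higher leukocyte markers. Limma-voom gave 1 lower gene each of pyruvate entry and the cytosolic side, IDH2 at 0.011 and MDH1 at -0.0023. At equal depth, where ITGAM was not tested, 1 gene of pyruvate entry and 0 of the cytosolic side and leukocyte lists were higher, 1 cytosolic gene and 1 regulator were lower, and MDH1 was at -0.0091. The cause of the other shifts was not tested.

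The replicate block gave 1 higher and 1 lower of the 9 enzymes, with a median of -0.14, with 1073 higher and 811 lower genes in all, 0 lower other cycle genes, 0 higher cytosolic genes, 0 higher leukocyte markers and 1 lower fibroblast marker. What same-numbered libraries share is not stated in the labels. Their deviations correlated at -0.19 over 13663 genes, a value from 2 pairs that cannot show whether they share more than a number. The crossed pairing gave 1 higher and 2 lower of the 9 (MDH2 at -0.24), 1551 higher and 1471 lower genes in all, 2 lower genes of pyruvate entry, 1 of filling reactions, 2 of the cytosolic side and 2 regulators, 2 higher cytosolic genes and 0 leukocyte markers.

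Leaving out 1 library at a time gave 0 to 1 higher and 0 to 3 lower of the 9, 369 to 1977 higher and 235 to 1791 lower genes in all, and 0 to 2 lower other cycle genes. For pyruvate entry it gave 0 to 5 higher and 0 to 2 lower, for filling reactions 0 to 2 lower, for the cytosolic side 0 to 1 in each direction and for regulators 0 to 1 lower. Among markers it gave 0 to 2 epithelial, 0 leukocyte, 0 to 1 endothelial and 1 to 3 nuclear RNAs higher, and 0 to 1 fibroblast lower. Ranges of the log2 fold change were -0.23 to -0.041 for CS, 0.43 to 0.85 for IDH1, -0.41 to 0.22 for IDH2, -0.31 to 0.036 for IDH3A, 0.015 to 0.11 for OGDH, -0.30 to -0.080 for SUCLG1, -0.43 to -0.35 for FH, -0.28 to -0.22 for MDH2 and -0.053 to 0.052 for MDH1. The median of the 9 ran from -0.21 to -0.073. A fit without 1 library leaves an arm with 1 sample, assumed to vary like the other group.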
